A study of Mus musculus with 202 samples.

Results

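The 63 clustered histone genes described here are the genes whose symbol starts with Hist, a cluster number from 1 to 4 and the letter h, out of 28987 genes in the deposited expression table. They comprise 6 genes of the linker histone H1, 18 of H2A, 16 of H2B, 11 of H3 and 12 of H4. On the mouse build GRCm38, 51 lie on chromosome 13, 9 on chromosome 3 and 3 on chromosome 11. The measurements are single-cell transcriptomes of 1 mouse pancreatic ductal adenocarcinoma cell line, male, of the KPC type and derived from a liver metastasis. Both groups share this origin. The cultured cells, grown in DMEM with serum, were trypsinised, stained with an antibody to E-cadherin and sorted into Ecad- cells, the negative fraction, and Ecad+ cells, the positive fraction. The study compared these 2 fractions, and its title names endoplasmic reticulum stress and latent metastasis.

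A cell must double its histones when it copies its DNA, and most clustered histone genes are switched on in S phase for this purpose. Their messenger RNAs are unusual in ending at a conserved stem-loop, bound by the protein Slbp, and not in a poly(A) tail. Some clustered genes also make polyadenylated transcripts, which can persist in cells that have stopped dividing. The SMARTer chemistry used here primes cDNA synthesis on poly(A), so the levels below describe the histone RNA that such priming reached, and that share was not measured. The comparison asks how these levels differ between Ecad- and Ecad+ cells, and whether they follow the replication genes Mcm5, a subunit of the replicative helicase, and Rrm2, a subunit of the enzyme that makes deoxyribonucleotides.

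In the GENCODE M21 transcripts on GRCm38, 39 of the 63 genes carry the histone stem-loop, in 6 forms, against 12 of 55387 other genes (0.0217%), of which 5 are themselves named Hist. The 3 most frequent forms are shown because 1 of them stands in H4 transcripts alone. Capitals mark the stem-loop, which is the whole of each line, read 5′ to 3′ on the transcript.
22 transcripts, of H1, H2A, H2B and H3 genes, Hist1h1c, Hist3h2a and Hist2h2aa1 among them: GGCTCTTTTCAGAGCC
6 transcripts, all of H4 genes, Hist1h4d and Hist1h4h among them: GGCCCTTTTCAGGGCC
6 transcripts, Hist1h3e and Hist1h2bb among them: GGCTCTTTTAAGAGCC
In 20 members the annotated transcript runs at least 100 bases past the stem-loop, as it does by 1643 bases in Hist3h2a, 840 in Hist1h1c and 770 in Hist1h4d. In 19 members it stops sooner, 46 bases past the stem-loop in Hist1h4h. The other 24 members have no stem-loop in their annotated transcript, and Hist1h2bc, the most abundant member in these cells, is one of them, with a transcript of 1156 bases in 2 exons.

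The table held 98 Ecad- and 104 Ecad+ libraries in 3 library sets, named by a suffix whose meaning is not stated. In 5 pairs of libraries the correlation over all genes was 0.984 to 0.994, against 0.939 in the next pair, and each of the 5 was averaged as 1 cell. This left 97 Ecad- and 100 Ecad+ cells. The 4 Ecad+ pairs lay across library sets 1 and 3. Values by library set use all libraries without averaging, so these pairs enter both sets, which are not fully separate. Values are TPM, a share of a cell's RNA per transcript length, and depth is unknown. The median number of genes above 0 was 8694 in Ecad- and 10338 in Ecad+ cells. The mitochondrial share of TPM was under 1% in 40 of 97 Ecad- cells and 1 of 100 Ecad+ cells, called low-share cells below. Cdh1, the gene of E-cadherin, averaged 16.1 ± 18.3 TPM in Ecad- cells and 37.9 ± 21.0 TPM in Ecad+ cells (SD over cells), and the epithelial keratin gene Krt18 was above 0 in 99.0% of Ecad- and in all Ecad+ cells. Of 7 epithelial and ductal markers above the expression floor given below, 5 were at least 2-fold lower in Ecad- cells, beside 4.14% of all genes. The number at least 2-fold higher was 0, beside 14.2%. The 9 markers of this list summed to a median of 1682 TPM in Ecad- cells against 4099 TPM in Ecad+ cells. The 7 leukocyte markers in the table summed to a median of 0.0365 TPM in Ecad- cells against 0.0251 TPM in Ecad+ cells, and no leukocyte, fibroblast, endothelial, acinar or endocrine marker passed the expression floor given below, while 1 of 6 hepatocyte markers did. A number in the library names, of unstated meaning, is higher for every Ecad- than for every Ecad+ library, so anything tied to it cannot be told apart from the sorted fraction. The labels name no separate cultures, so each group is 1 sample and no test was made. Spreads and intervals are over cells of 1 line and do not measure how much cultures vary.

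Clustered histone RNA had a higher mean level in Ecad- than in Ecad+ cells, and most of the difference in level came from 1 gene, Hist1h2bc. The summed TPM of the 63 genes had a lowest value of 0.979, a median of 335 and a highest of 7548 in Ecad- cells, against a lowest of 12.0, a median of 185 and a highest of 2302 in Ecad+ cells. The lower parts of the ranges overlapped, and the Ecad- cells reached further up. The means were 1217 ± 1772 TPM in Ecad- cells against 317 ± 398 TPM in Ecad+ cells (SD over cells), giving a log2 ratio of 1.94. Within the 3 library sets this ratio was 1.37, 2.86 and 1.74. The other 62 genes made up 44.6% of the mean sum in Ecad- cells and 62.6% in Ecad+ cells. Without Hist1h2bc the sum averaged 543 ± 881 TPM in Ecad- cells against 198 ± 209 TPM in Ecad+ cells.

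The low-share cells moved with this result. In Ecad- cells the summed histone TPM had a median of 1422 in the 40 low-share cells and 165 in the other 57, while the 99 Ecad+ cells with a mitochondrial share of 1% or more had a median of 188. Without low-share cells the means were 529 TPM in Ecad- cells against 319 TPM in Ecad+ cells, giving a log2 ratio of 0.73. The part of the low mitochondrial share in the result was not tested. When each cell was rescaled to the TPM outside mitochondrial and ribosomal protein genes, the log2 ratio was 1.54.

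Most cells of both groups held some histone RNA, and the groups differed more at high levels. The sum reached 100 TPM in 79.4% of Ecad- cells (exact Clopper-Pearson 95% interval 70.0% to 86.9%) and in 73.0% of Ecad+ cells (63.2% to 81.4%). These intervals cover counting error only, and they overlap. A sum of 1000 TPM was reached in 30.9% of Ecad- and 5.0% of Ecad+ cells. This level lies under the median of 1422 TPM in the 40 low-share Ecad- cells and above that of 165 TPM in the other 57. Of the 63 members, 23 (36.5%) were above 0 in a larger share of Ecad- than Ecad+ cells, beside 21.6% of all 28987 genes. Another 39 (61.9%) were above 0 in a smaller share, beside 52.1%. Members exceeded all genes both ways, since the whole table also holds genes with equal shares. At 10 TPM or more, 45 members (71.4%) had a larger share in Ecad- cells, beside 26.7% of all genes, and 11 (17.5%) a smaller one, beside 21.4%. Hist1h1t, a testis H1 gene, was listed at 0 in every cell.

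All 5 families had higher mean sums in Ecad- cells, to different extents. H2B, which pairs with H2A in the nucleosome, averaged 721 ± 1119 TPM in Ecad- cells against 129 ± 245 TPM in Ecad+ cells, giving a log2 ratio of 2.48. H2A averaged 245 ± 427 TPM in Ecad- cells against 108 ± 128 TPM in Ecad+ cells, giving a log2 ratio of 1.17. The medians of H2A were closer, at 63.0 TPM in Ecad- cells against 65.0 TPM in Ecad+ cells, so the higher H2A mean rests on the upper tail of Ecad- cells. H4, which pairs with H3, averaged 185 ± 356 TPM in Ecad- cells against 56.9 ± 73.8 TPM in Ecad+ cells, giving a log2 ratio of 1.68. The H3 genes averaged 36.7 ± 63.6 TPM in Ecad- cells against 9.25 ± 15.6 TPM in Ecad+ cells, giving a log2 ratio of 1.88. H1, which binds the linker DNA between nucleosomes, averaged 29.9 ± 53.3 TPM in Ecad- cells against 13.8 ± 20.2 TPM in Ecad+ cells, giving a log2 ratio of 1.06. Without low-share cells the ratio was 1.28 for H2B, 1.02 for H3, 0.59 for H1 and 0.39 for H4, and it turned to -0.15 for H2A.

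Of the 63 members, 16 passed an expression floor of a mean of at least 5 TPM, with 10% of cells or more above 0. Another 23 had a mean of 1 to 5 TPM and 24 a mean under 1 TPM. Of the 16, 12 were at least 2-fold higher in Ecad- cells, where 14.2% of all 7227 genes above the floor were, and 1 was at least 2-fold lower, where 4.14% of all genes were. Their median log2 ratio was 1.74, beside 0.31 over all 7227 genes. This count is partly set by the floor: 7 of the 16 had a mean under 5 TPM in Ecad+ cells and so passed through their level in Ecad- cells, while 2, Hist1h2aj and Hist1h2ae, had a mean under 5 TPM in Ecad- cells. With no floor, 27 of the 63 were at least 2-fold higher, beside 5.73% of all genes, and 2 were at least 2-fold lower, beside 1.49%. In every library set, 9 of the 16 were at least 2-fold higher, beside 5.0% of genes, and 0 at least 2-fold lower, beside 0.858%. Without low-share cells, 8 of the same 16 were at least 2-fold higher, beside 4.94%, and 3 at least 2-fold lower, beside 3.0%.

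**Figure D1:**
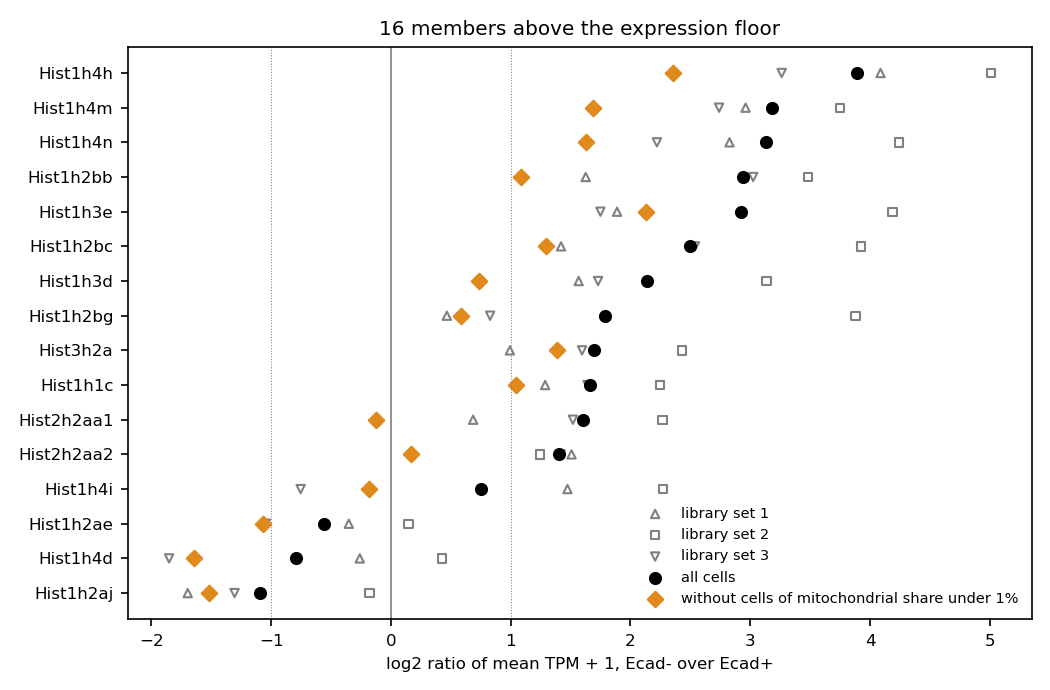
Log2 ratio of the mean TPM plus 1 in Ecad- over Ecad+ cells (horizontal axis) for the 16 members above the expression floor. Filled circles give all cells, open symbols the 3 library sets and diamonds the value without low-share cells. Hist1h4h lies farthest right at 3.89 and Hist1h2aj farthest left at -1.10, and for all 16 the diamond lies left of the circle.

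Hist1h2bc, an H2B gene at chr13:23684199-23692908 on the plus strand, was the most abundant member in both groups. Its level had a lowest value of 0, a median of 146 and a highest of 4907 TPM in Ecad- cells, against a lowest of 0, a median of 25.1 and a highest of 1557 TPM in Ecad+ cells. The ranges overlapped, with the Ecad- median above the upper quartile of Ecad+ cells, which was 99.0 TPM. In the 57 Ecad- cells that were not low-share cells the median was 83.9 TPM, below that quartile. The means were 674 ± 1061 TPM in Ecad- cells against 119 ± 236 TPM in Ecad+ cells, giving a log2 ratio of 2.50, with 1.42, 3.92 and 2.54 in the library sets and 1.29 without low-share cells. It was at 10 TPM or more in 80.4% of Ecad- cells (71.1% to 87.8%) against 62.0% of Ecad+ cells (51.8% to 71.5%). Of its 31-base words, 66.5% occur in no other annotated gene, so its level is less open to shared reads than that of most members.

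Hist2h2aa1 and Hist2h2aa2 are neighbouring H2A genes on chromosome 3 whose annotated transcripts hold no 31-base word of their own. All of these words also occur in non-member genes, so the split of reads between the pair, and with those genes, is uncertain. Hist2h2aa1 had a lowest value of 0, a median of 20.1 and a highest of 2008 TPM in Ecad- cells, against 0, 14.2 and 836 TPM in Ecad+ cells. The mean of Hist2h2aa1 was 175 ± 357 TPM in Ecad- cells against 56.9 ± 115 TPM in Ecad+ cells, giving a log2 ratio of 1.60 that became -0.13 without low-share cells. The gene was above 0 in fewer Ecad- cells, 64.9% against 83.0% of Ecad+ cells. Hist2h2aa2 averaged 17.3 ± 46.4 TPM in Ecad- cells against 5.90 ± 10.9 TPM in Ecad+ cells, giving a log2 ratio of 1.40, or 0.17 without low-share cells.

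Hist3h2a and Hist1h1c kept a ratio above 2-fold without low-share cells. Hist3h2a, the H2A gene of the chromosome 11 cluster (chr11:58954685-58956830, plus strand), had a lowest value of 0, a median of 7.81 and a highest of 212 TPM in Ecad- cells, against 0, 1.82 and 125 TPM in Ecad+ cells. The log2 ratio was 1.70, with 0.99, 2.43 and 1.60 in the library sets and 1.39 without low-share cells. Its transcript shares 32.1% of its 31-base words with non-member genes. Hist1h1c, the gene of linker histone H1.2, had a median of 3.74 and a highest of 278 TPM in Ecad- cells, against 2.85 and 134 TPM in Ecad+ cells. The medians were close and the means apart, at 26.9 ± 52.4 TPM in Ecad- cells against 7.83 ± 16.6 TPM in Ecad+ cells, giving a log2 ratio of 1.66 and 1.05 without low-share cells.

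The H4 genes divided in direction. Hist1h4h (chr13:23531050-23531519, plus strand) had the highest ratio of the 16 members: it had a median of 0 and a highest value of 530 TPM in Ecad- cells, against 0 and 154 TPM in Ecad+ cells. It was above 0 in similar shares, 42.3% of Ecad- and 38.0% of Ecad+ cells, but at 10 TPM or more in 35.1% of Ecad- cells (25.6% to 45.4%) against 6.0% of Ecad+ cells (2.23% to 12.6%). Its means were 63.6 ± 136 TPM in Ecad- cells against 3.34 ± 15.9 TPM in Ecad+ cells, giving a log2 ratio of 3.89, and 2.36 without low-share cells. Of the 31-base words of Hist1h4h, 50.0% are its own, so its level is also open to shared reads. Hist1h4n and Hist1h4m had ratios of 3.13 and 3.18, but only 12.5% and 8.33% of their 31-base words are their own. Hist1h4i averaged 24.4 ± 58.8 TPM in Ecad- cells against 14.0 ± 39.7 TPM in Ecad+ cells, with a log2 ratio of 0.76 that was 1.47 and 2.27 in 2 library sets and -0.75 in the other.

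Hist1h4d (chr13:23581598-23582735, plus strand) was the most abundant member that was lower in Ecad- cells. Its level had a median of 0 and a highest value of 265 TPM in Ecad- cells, against a median of 13.8 and a highest of 289 TPM in Ecad+ cells. The share above 0 was 47.4% in Ecad- cells (37.2% to 57.8%) against 80.0% in Ecad+ cells (70.8% to 87.3%). The mean was 17.9 ± 42.4 TPM in Ecad- cells against 31.8 ± 49.7 TPM in Ecad+ cells, giving a log2 ratio of -0.79, which was -0.26, 0.43 and -1.85 in the library sets. It was 0.14 when the third set was left out and -1.65 without low-share cells. With 85.3% of its 31-base words its own, Hist1h4d is one of the more separable H4 genes.

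Hist1h2aj and Hist1h2ae, both H2A, were the other 2 of the 16 that were lower in Ecad- cells. Hist1h2aj averaged 4.85 ± 11.5 TPM in Ecad- cells against 11.5 ± 18.2 TPM in Ecad+ cells, giving a log2 ratio of -1.10, and was above 0 in 33.0% of Ecad- and 73.0% of Ecad+ cells. GENCODE lists it as an unprocessed pseudogene, and 6.52% of its 31-base words are its own. Hist1h2ae averaged 4.65 ± 8.86 TPM in Ecad- cells against 7.31 ± 13.2 TPM in Ecad+ cells, giving a log2 ratio of -0.56, and was above 0 in 40.2% of Ecad- and 69.0% of Ecad+ cells. The remaining named members were higher in Ecad- cells: Hist1h2bb averaged 11.2 ± 43.7 TPM in Ecad- cells against 0.592 ± 1.69 TPM in Ecad+ cells, and Hist1h3e 13.9 ± 41.7 TPM in Ecad- cells against 0.968 ± 2.87 TPM in Ecad+ cells. Hist1h3d and Hist1h2bg completed the 16, with log2 ratios of 2.14 and 1.79.

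**Figure D2:**
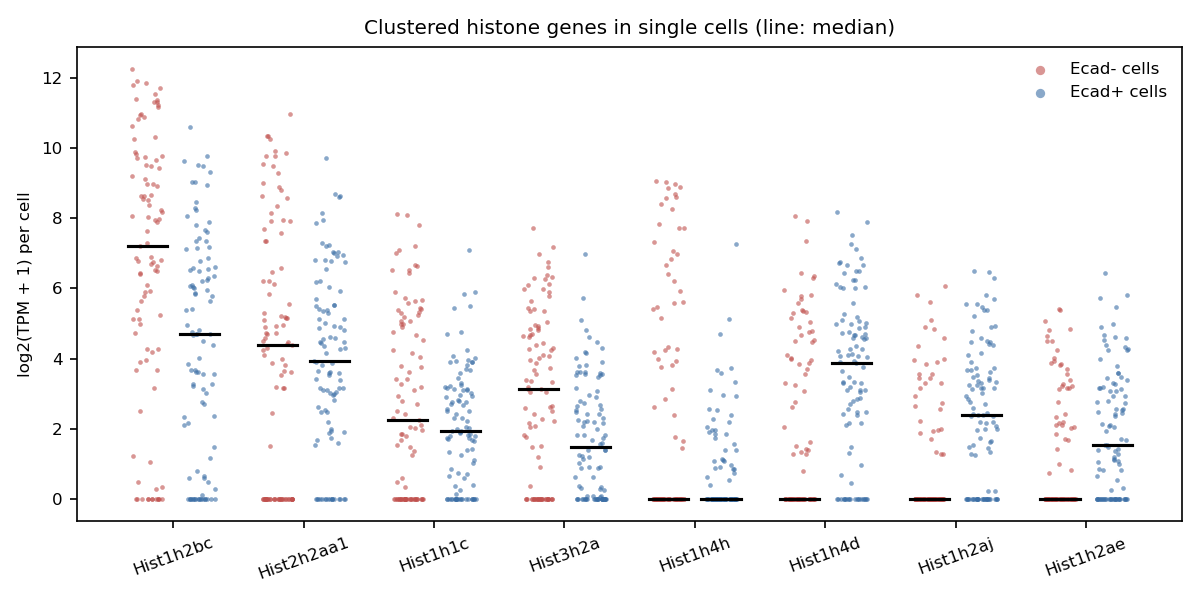
Level of 8 members in single cells as log2(TPM + 1), with Ecad- cells in red left of Ecad+ cells in blue and a line at each median. Hist1h2bc has the highest medians of the 8, and Hist1h4d, Hist1h2aj and Hist1h2ae have a median of 0 in Ecad- cells and a median above 0 in Ecad+ cells.

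The relation to replication was described with the mean log2(TPM + 1) of Mcm5 and Rrm2, called the replication score, which had a median of 1.66 in Ecad- and 4.86 in Ecad+ cells. Mcm5 averaged 5.39 TPM in Ecad- cells against 12.0 TPM in Ecad+ cells, and Rrm2 averaged 39.6 TPM in Ecad- cells against 120.3 TPM in Ecad+ cells. The Spearman rho between these 2 genes was 0.49 over 97 Ecad- and 0.78 over 100 Ecad+ cells. All such correlations are over cells that share a library preparation and differ in genes above 0 and mitochondrial share, so they are descriptions with no p.

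Summed histone RNA did not follow the replication score upward in either group. The rho between the sum and the score was -0.32 over the 97 Ecad- cells, and -0.02 over those that were not low-share cells. In the 100 Ecad+ cells it was -0.09, and 0.11 when Hist1h2bc was left out of the sum. The sum also correlated with the mitochondrial share, at -0.52 in Ecad- and -0.37 in Ecad+ cells, and with the number of genes above 0, at -0.09 in Ecad- and -0.32 in Ecad+ cells. The part of these measures in the relation was not tested. By family, all 5 values of rho with the score were below 0 in Ecad- cells, between -0.35 for H2A and -0.06 for H1. Without low-share cells 3 of these turned positive, with 0.16 for H1, 0.09 for H3 and 0.06 for H4, while H2A had -0.10 and H2B -0.01. In Ecad+ cells rho was 0.36 for H3 and 0.31 for H4, while it was -0.33 for H2B, -0.02 for H2A and -0.04 for H1.

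**Figure D3:**
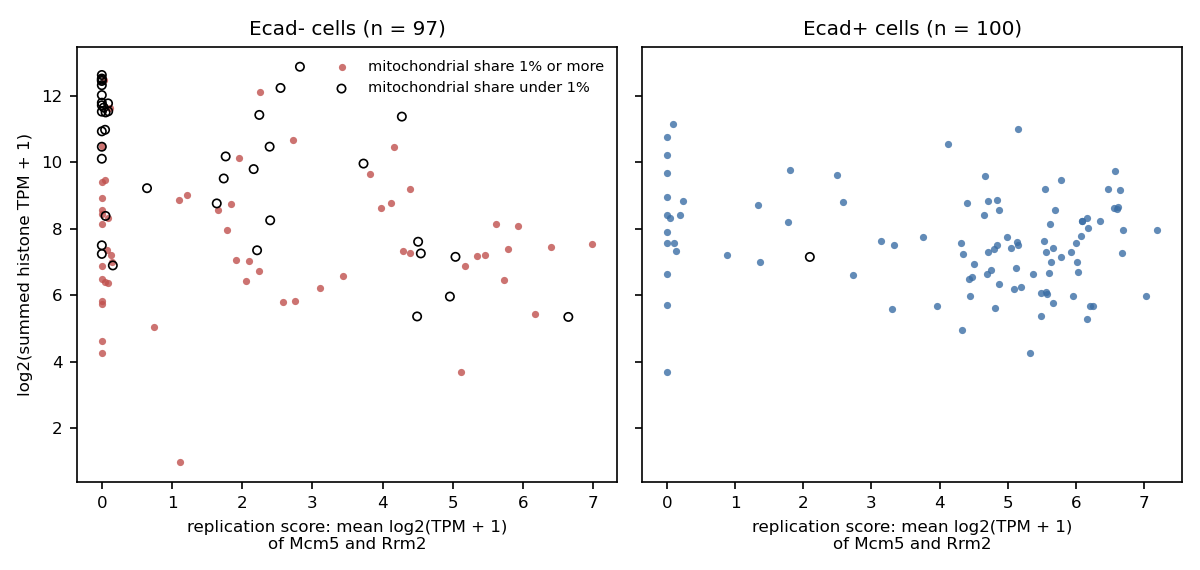
Summed TPM of the 63 clustered histone genes, as log2(TPM + 1), against the replication score in Ecad- cells (left) and Ecad+ cells (right), 1 point per cell. Open circles mark cells with a mitochondrial share under 1%; many of them lie at a score near 0 and a high histone sum in the Ecad- panel, and cells with a score near 0 hold histone RNA in both panels.

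Behind the sums, single members differed. Over all Ecad- cells 3 members ran against the replication score and none reached a rho of 0.3. Of 47 members above 0 in at least 10% of Ecad- cells, 0 had a rho of 0.3 or more, beside 3.87% of 14654 genes, and 3 had a rho of -0.3 or less, beside 0.546%. These 3 were Hist2h2aa1 at -0.44, Hist1h2bc at -0.35 and Hist3h2a at -0.31, and without low-share cells they had -0.27, -0.06 and -0.17. In the library sets Hist2h2aa1 had -0.20, -0.55 and -0.28, and Hist1h2bc had -0.14, -0.42 and -0.20. Hist3h2a had -0.167, -0.295 and -0.292, so it passed -0.3 in no single set. Hist1h4d had 0.09 and Hist1h2ae 0.02 in Ecad- cells. Hist1h2aj had 0.15, and 0.41 without low-share cells. Over all genes the median rho was 0.036 in Ecad- and 0.041 in Ecad+ cells.

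In Ecad+ cells 11 members followed the replication score, 2 ran against it and most did neither. Of 49 members above 0 in at least 10% of Ecad+ cells, 11 had a rho of 0.3 or more, beside 8.63% of 15125 genes, and 2 had a rho of -0.3 or less, beside 1.9%. Hist1h4d was highest at 0.47, with 0.41, 0.38 and 0.56 in the library sets. Next among the members above the expression floor was Hist1h2aj at 0.41, with 0.61, -0.02 and 0.62. Hist1h2ae had 0.38, with 0.15, 0.21 and 0.64 in the library sets. The others with 0.3 or more were Hist1h3i at 0.43, Hist1h1b, Hist1h2ak, Hist1h1e, Hist2h2ac, Hist2h3c2, Hist1h2ag and Hist1h2ab, all below the expression floor and here named after their values were seen. The 2 lowest were Hist3h2a at -0.42, with -0.53, -0.19 and -0.51 in the library sets, and Hist1h2bc at -0.33, with -0.24, -0.02 and -0.53. Hist2h2aa1 had -0.26, with -0.37, 0.10 and -0.46. So 2 of the 3 lowest members of Ecad- cells, Hist1h2bc and Hist3h2a, were at -0.3 or less in Ecad+ cells too.

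**Figure D4:**
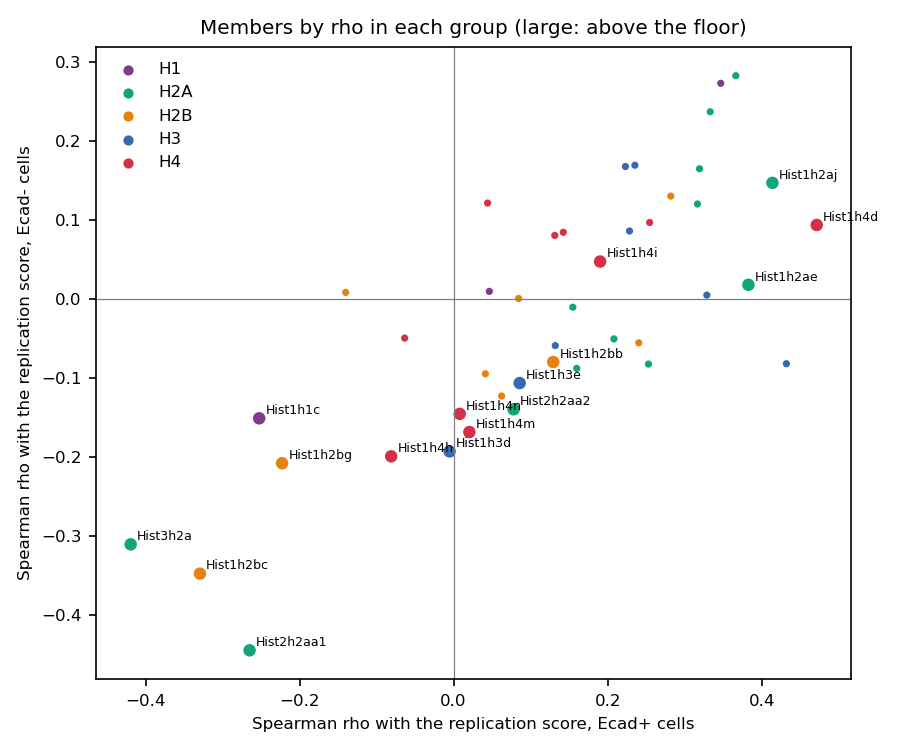
Spearman rho of each member with the replication score in Ecad- cells (vertical axis) and in Ecad+ cells (horizontal axis), coloured by family, with large labelled points for members above the expression floor. Hist2h2aa1, Hist1h2bc and Hist3h2a lie at the lower left, and Hist1h4d, Hist1h2aj and Hist1h2ae at the right with values near or a little above 0 on the vertical axis.

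Histone RNA was also present in cells with little Mcm5 and Rrm2. Cells with both genes at 10 TPM or more, called replication-high, numbered 16 of 97 Ecad- and 43 of 100 Ecad+ cells, and cells with both under 10 TPM, called replication-low, numbered 51 Ecad- and 20 Ecad+ cells. These classes are ranges of a continuum, with either gene between 5 and 20 TPM in 30 Ecad- and 51 Ecad+ cells. A low value of both genes does not show that a cell was outside S phase, since values of 0 can be missed transcripts. The summed histone TPM reached 100 in 81.3% of replication-high Ecad- cells (54.4% to 96.0%) and 74.4% of replication-high Ecad+ cells (58.8% to 86.5%). In replication-low cells these shares were 80.4% for Ecad- (66.9% to 90.2%) and 85.0% for Ecad+ (62.1% to 96.8%). All 4 intervals overlap.

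Median levels were lower in replication-high than in replication-low cells of both groups. The sum had a median of 164 TPM in replication-high Ecad- cells and 193 TPM in replication-high Ecad+ cells. In replication-low cells the medians were 486 TPM in Ecad- cells and 307 TPM in Ecad+ cells. The low-share cells account for 24 of the 51 replication-low Ecad- cells, and the other 27 had a median of 165 TPM; the 10 replication-high Ecad- cells that were not low-share cells had 172 TPM. Most replication-low cells also had low G2/M genes, 45 of the 51 Ecad- and 19 of the 20 Ecad+ cells lying under the median G2/M score, and these had median sums of 516 TPM in Ecad- cells against 292 TPM in Ecad+ cells.

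By class in Ecad+ cells, medians differed for H2B, H3 and H4 and were closer for H2A and H1. The classes use the same 2 genes as the score. The split of single members with extreme rho therefore restates that relation and adds no support. H2B had a median of 15.9 TPM in replication-high and 152 TPM in replication-low Ecad+ cells. H4 had 37.1 TPM in replication-high and 13.9 TPM in replication-low cells, and H3 had 5.31 TPM and 0. H2A had 66.7 TPM in replication-high and 77.8 TPM in replication-low cells, and H1 had 7.18 and 8.24 TPM. By mean, Hist1h2bc gave 88.6 of the 99.7 TPM of H2B in replication-high cells and 273 of 281 TPM in replication-low cells. Hist1h4d was above 0 in 38 of 43 replication-high and 8 of 20 replication-low Ecad+ cells. Hist1h2bc was above 0 in 36 of 43 replication-high and 18 of 20 replication-low Ecad+ cells, with medians of 15.3 TPM in replication-high and 150 TPM in replication-low cells. Hist3h2a was above 0 in 26 of 43 replication-high and 19 of 20 replication-low Ecad+ cells. Hist1h1b, the gene of linker histone H1.5, was above 0 in 4 of 16 replication-high and 0 of 51 replication-low Ecad- cells, and in 22 of 43 replication-high and 2 of 20 replication-low Ecad+ cells. Hist1h1b was low throughout, at a mean of 0.184 TPM in Ecad- cells against 1.36 TPM in Ecad+ cells.

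**Figure D5:**
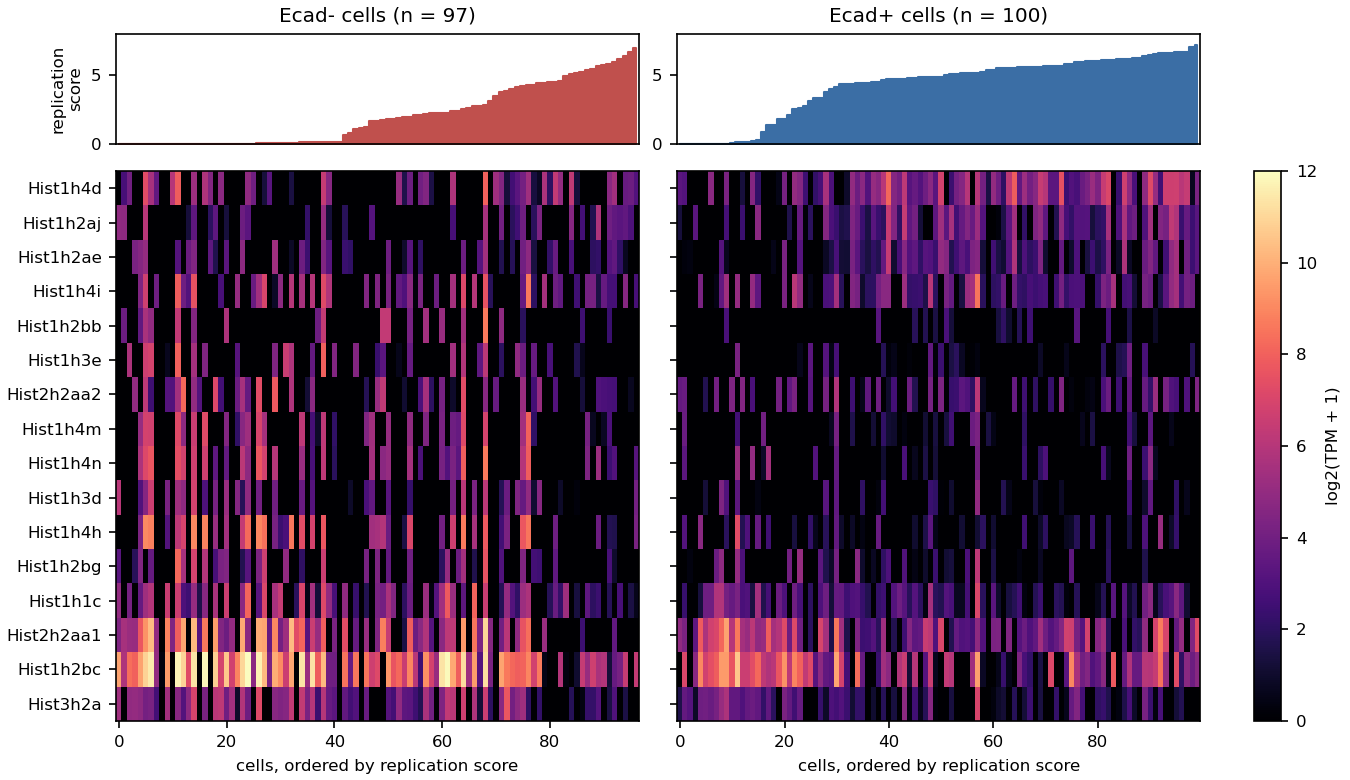
Levels of the 16 members above the expression floor as log2(TPM + 1) in single Ecad- cells (left) and Ecad+ cells (right), with cells ordered by replication score, which the bars above show. Rows are ordered by their rho with the score in Ecad+ cells, so that Hist1h4d at the top is brighter toward the right of the Ecad+ panel, and Hist1h2bc and Hist3h2a at the bottom are brighter toward the left.

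Some members with similar relations to the score went with each other, but the match was not general. In Ecad- cells Hist2h2aa1 had a rho of 0.66 with Hist1h2bc and 0.68 with Hist1h4h. Hist1h4h was not among the members at -0.3 or less with the score. Hist1h2bc and Hist3h2a, at the low end, had a rho with each other of 0.75 over 97 Ecad- cells and 0.55 over 100 Ecad+ cells. In Ecad- cells the highest value among the 16 members was 0.79, between Hist1h4h and Hist1h4n and between Hist1h4n and Hist1h4m. Hist1h4n and Hist1h4m share much of their sequence: 85.2% of the 31-base words of Hist1h4n also occur in Hist1h4m, so their reads may be split between them. In Ecad+ cells the rho was 0.62 between Hist1h4d and Hist1h2ae, 0.59 between Hist1h2aj and Hist1h2ae and 0.55 between Hist1h4d and Hist1h2aj. In Ecad- cells these values were 0.20, 0.41 and 0.27. Of the 31-base words of Hist1h2aj, 69.6% also occur in Hist1h2ae, so reads may be split between these genes too. Between Hist1h2bc and Hist1h4d the rho was -0.34 in Ecad+ cells and 0.004 in Ecad- cells.

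Neighbouring genes that share a promoter region did not always share a pattern. The members form 10 divergent pairs, 9 of them an H2A gene facing an H2B gene, with 172 to 659 bases between the annotated starts. The pairs named here were picked after their values were seen. Hist1h2ae and Hist1h2bg are 175 bases apart and had opposite signs: log2 ratios of -0.56 for Hist1h2ae and 1.79 for Hist1h2bg, and rho with the score in Ecad+ cells of 0.38 for Hist1h2ae and -0.22 for Hist1h2bg. Hist1h2ag and Hist1h2bj likewise had ratios of -1.16 and 1.12. The pair Hist1h2ac and Hist1h2bc had ratios of the same sign, 2.04 and 2.50. In Hist1h2ae 52.1% and in Hist1h2bg 43.7% of the 31-base words are their own. The sequence between the RefSeq starts of the first pair is shown because 1 region stands before both genes (GRCm38.p6, chr13:23571221-23571399, plus strand, Hist1h2bg to the right), followed by the 250 bases before Hist1h4d (chr13:23581318-23581567, plus strand) and before Hist3h2a (chr11:58954435-58954684, plus strand), the members with the highest and the lowest rho in Ecad+ cells.
Hist1h2ae and Hist1h2bg: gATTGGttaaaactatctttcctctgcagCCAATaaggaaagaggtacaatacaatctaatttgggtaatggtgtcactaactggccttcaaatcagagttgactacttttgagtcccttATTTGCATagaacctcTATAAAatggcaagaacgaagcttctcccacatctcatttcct
Hist1h4d: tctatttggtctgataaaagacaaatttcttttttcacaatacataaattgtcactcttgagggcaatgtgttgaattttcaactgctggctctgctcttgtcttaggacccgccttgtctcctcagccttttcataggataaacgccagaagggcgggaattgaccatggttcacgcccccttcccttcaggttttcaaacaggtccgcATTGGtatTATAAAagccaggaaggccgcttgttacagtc
Hist3h2a: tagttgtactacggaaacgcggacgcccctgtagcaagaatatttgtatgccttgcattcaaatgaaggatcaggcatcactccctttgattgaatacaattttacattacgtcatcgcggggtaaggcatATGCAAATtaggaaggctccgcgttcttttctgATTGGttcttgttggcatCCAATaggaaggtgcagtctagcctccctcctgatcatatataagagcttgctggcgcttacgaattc
Capitals mark a match to TATAAA, to CCAAT or to the octamer ATTTGCAT, each on either strand, and none of the 3 sequences holds TTTNNCGC.

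RefSeq promoters were matched for 54 of the 63 members. Searched on both strands of the 250 bases before the start, TATAAA occurred in 27 of the 54 (50.0%), beside 13.0% of all 27025 promoters. CCAAT occurred in 45 (83.3%), beside 34.5%, and it was found in each of the H1, H2A and H2B promoters but in 3 of 11 H4 promoters. ATTTGCAT occurred in 12 (22.2%), beside 1.61%, namely in 7 of 16 H2A and 5 of 13 H2B promoters and in no H1, H3 or H4 promoter. TTTNNCGC, a letter pattern bound by E2F factors, occurred in 12 (22.2%), beside 4.39%. The Hist3h2a promoter holds the octamer and 2 CCAAT matches, and the Hist1h4d promoter holds a TATAAA and a CCAAT match. Promoters of divergent pairs overlap, so 1 site can be counted for both genes, as is the octamer between Hist1h2ae and Hist1h2bg. A match describes letters only.

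Among the genes that drive and process histone RNA, the stem-loop binding protein gene Slbp averaged 166 TPM in Ecad- cells against 142 TPM in Ecad+ cells, giving a log2 ratio of 0.23, and its rho with the score was 0.27 in Ecad- and 0.65 in Ecad+ cells. Npat, the coactivator of histone transcription, had a ratio of 0.74 and Casp8ap2, a component of the same nuclear body, 0.65. Of 19 genes for histone transcription and RNA processing above the floor, 3 were at least 2-fold higher in Ecad- cells, beside 14.2% of all genes, and 0 lower, beside 4.14%. Their median ratio was 0.62, beside 0.31 over all genes, and without low-share cells it was 0.21, beside 0.14. The 3 were Zcchc11 at 1.30, a uridylyltransferase, Lsm10 at 1.06, a subunit of the U7 particle that cuts histone RNA, and Mbtd1 at 1.05. Fip1l1, a polyadenylation factor, had 0.95.

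Among 22 histone chaperones above the floor, 2 were at least 2-fold higher, beside 14.2% of all genes, and 0 lower, beside 4.14%, with a median of 0.05. Those 2 were Ubn1 at 2.21 and Ubn2 at 1.58, both partners of Hira in depositing H3.3 outside replication, and without low-share cells they were at 0.80 and 1.13. Chaf1a, of the chaperone CAF-1 that acts at replication forks, had -0.95 and Asf1b, an H3 and H4 chaperone, -0.90. Of the genes listed as replication-independent histones, H3f3a had a log2 ratio of 0.07, H3f3b 0.12 and H2afz 0.03. Of 9 such genes above the floor, 1 was at least 2-fold lower, H2afx at -1.14, and 0 were higher. H2afj had 0.88, Cenpa -0.76 and H2afv 0.24.

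The replication and mitosis lists had median ratios below 0, beside the higher histone sum in Ecad- cells. Of 43 replication genes above the floor, 4 were at least 2-fold lower, beside 4.14% of all genes. At least 2-fold higher was 1, beside 14.2%, and the median was -0.45. Tk1, thymidine kinase, had -1.86, Rfc5, a clamp loader subunit, -1.70, Rrm2 -1.58 and Pola1, the polymerase that starts new strands, 1.14, while Mcm5 had -1.02. Of 40 G2/M genes, 23 were at least 2-fold lower, beside 4.14% of all genes, and 0 higher, beside 14.2%. Their median was -1.11, led by Ube2c at -2.61, Kif23 at -1.87, Cdk1 at -1.85 and Aurkb at -1.69. In Ecad+ cells 47 of 48 replication genes had a rho of 0.3 or more with the score, which 2 of them define. The same held for 11 of 49 clustered histone genes, of which 16 were above the floor, beside 8.63% of all genes. In Ecad- cells it held for 35 of 48 replication genes and 0 of 47 clustered histone genes, beside 3.87% of all genes.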

How the data were processed

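A single table, deposited by the authors, gave log2 values of 28987 genes in each library. Per the submitters' processing notes, FastQC 0.11.5, kallisto and build mm10 were used; for the index and the summing to genes, nothing is stated. The deposited log2 values were read as log2(TPM + 1), since back-transformed libraries summed to near 1000000. Single cells were isolated on a Fluidigm C1 per the labels' protocols, amplified with SMARTer and made into Nextera XT libraries. These carry no molecular identifiers or strand, so overlapping genes and near-identical copies share reads.

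Python 3.11.15, numpy 2.4.6, pandas 2.3.3 and scipy 1.17.1 were used. Pairs of libraries correlating over 0.97 were averaged as 1 cell. The level of a group is the arithmetic mean of TPM over its cells. Each log2 ratio sets the Ecad- level against that of Ecad+ cells after 1 TPM was added to each, which understates the change of low genes. The scripts were tested on simulated data.

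The members and all lists were chosen with earlier results of these data known. Named members are the 10 of highest mean, the 5 highest and 5 lowest ratios, and the 3 highest and 3 lowest rho in Ecad+ cells among those above the floor; up to 4 genes per list were named by ratio. H1f0 was not analysed here. Identifiers matched GENCODE M21 for 57 members and symbols for 6. The table's Hist2h2aa1 and Hist2h2aa2 carry each other's symbol in GENCODE, and its Hist2h2bb is a lincRNA there. Alternatives were other means, pseudocounts of 0.1 and 10, centring, rescaling, cell filters, floors, class thresholds and each library set left out.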

Additional observations from a re-analysis of the deposited data

How the results depend on the processing

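With means of log2(TPM + 1) in place of means of TPM, the log2 ratio of the sum was 1.01 for all members, 0.17 for H1 and 0.36 for H4, and it reversed to -0.027 for H2A; 5 members were then at least 2-fold higher and 2 lower. Without low-share cells the ratio was 0.73 for all members, 0.59 for H1 and 0.39 for H4, and it reversed to -0.15 for H2A and -0.13 for Hist2h2aa1. With the floor applied again to the remaining cells, 10 members passed it, of which 4 were at least 2-fold higher and 3 lower, and the rho of the sum with the replication score in Ecad- cells was -0.018. The cause of these changes was not tested. The ratio for H1 was 0.75 with a pseudocount of 10, 0.76 when ratios were centred on the median gene and 0.75 after rescaling without mitochondrial and ribosomal protein genes. The count of members at least 2-fold lower was 0 with a pseudocount of 10, 2 with a 10% trimmed mean, 2 after centring and 4 after rescaling. With no floor 27 members were at least 2-fold higher, beside 5.73% of all genes, and 2 lower, beside 1.49%, and with a floor of 20 TPM 3 and 0. For the other counts of members in this paragraph the share of all genes was not computed. They therefore do not show how members compare with all genes under those settings. A sum of 10 TPM was reached in 99.0% of Ecad- and 100% of Ecad+ cells, and one of 1000 TPM in 30.9% of Ecad- and 5.0% of Ecad+ cells.

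Leaving out each library set gave a log2 ratio of the sum of 1.56 to 2.16, 8 to 14 members at least 2-fold higher, 0 to 2 lower, and a share of cells at 100 TPM of 72.3% to 84.8% in Ecad- and 61.2% to 84.6% in Ecad+ cells. The share of all genes was not computed beside these counts of members. Of 154 values of the 14 named members under the alternatives, 127 moved by less than the SD over the 3 library sets, and 4 changed sign. These were Hist1h4i at -0.16 with means of log2(TPM + 1) and -0.19 without low-share cells, Hist2h2aa1 as above and Hist1h4d at 0.14 with the third library set left out. Replication-high over replication-low cells had a log2 ratio of the mean sum of -3.15 to -0.98 in Ecad- and -1.09 to -0.67 in Ecad+ cells over the class alternatives. No paired analysis was possible because the numbers in the sample titles only name single cells and each group is 1 sample. TPM gives no depth, so a member listed at 0 may have been missed, and near-identical copies limit what can be said of single members.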
